A study of Homo sapiens with 12 samples.

Results

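The genes described here are 10 chemokines, CXCL1, CXCL2, CXCL3, CXCL5, CXCL6, CXCL8, CXCL10, CXCL16, CCL2 and CCL20, in Huh7 cells, an established human hepatocellular carcinoma (HCC) line. They were chosen by symbol, with earlier results of these data known, and make up 10 of the 60666 genes listed in each library. Cells received 25 µM Molidustat, a drug that blocks HIF prolyl hydroxylases, the enzymes that normally lead to HIF-α breakdown, or DMSO alone, for 24 h or 48 h. Each of the 4 groups holds 3 libraries, 12 in all, from 1 cell line kept in the same glucose-containing medium with serum. The study's text speaks of biological replicates and its record of triplicate RNA extractions, so it is not settled that the 3 libraries are separate cultures, and the p-values then measure the spread between these libraries only.

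Chemokines are small secreted proteins that direct the movement of leukocytes through receptors on those cells. CXCL1, CXCL2, CXCL3, CXCL5, CXCL6 and CXCL8 share a Glu-Leu-Arg motif before their first cysteines, bind CXCR2 (CXCL6 and CXCL8 also CXCR1) and attract neutrophils. CXCL10 lacks that motif and is an interferon-inducible ligand of CXCR3, CXCL16 is made as a membrane protein that binds CXCR6, CCL2 attracts monocytes through CCR2, and CCL20 attracts cells that carry CCR6. Transcription of many of these genes is known to be driven by NF-kB, and their mRNAs are known to be short-lived through AU-rich elements.

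The promoters of 8 of the 10 genes, all but CXCL16 and CCL2, for which the set used held none, were taken from RefSeq (GRCh38.p14). They run from 250 bases before to 50 bases after the transcription start. They are shown because 7 of the 8 hold the same 9 letters, GGAATTTCC, on either strand, while 162 of all 35116 promoters of the same length do (0.461%). Each line gives the bases around the match, upstream of the start and on the gene's own strand, with the match in capitals.
CXCL1: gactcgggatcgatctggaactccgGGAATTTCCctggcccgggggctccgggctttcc
CXCL2: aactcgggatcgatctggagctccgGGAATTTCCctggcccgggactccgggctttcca
CXCL3: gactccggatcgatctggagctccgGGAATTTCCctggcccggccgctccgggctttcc
CXCL5: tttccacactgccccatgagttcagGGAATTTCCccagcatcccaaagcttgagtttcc
CXCL6: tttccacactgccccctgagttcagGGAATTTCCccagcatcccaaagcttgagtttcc
CXCL8: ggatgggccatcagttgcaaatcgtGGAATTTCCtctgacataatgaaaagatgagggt
CXCL10: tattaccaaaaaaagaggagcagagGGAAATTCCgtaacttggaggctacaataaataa
CCL20: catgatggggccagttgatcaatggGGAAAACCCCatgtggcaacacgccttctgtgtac

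In CXCL10 the capitals are the match on the opposite strand, and in CCL20, which has no match to the 9 letters, they mark a match on the opposite strand to the NF-kB consensus. The windows lie at chr4:73869290-73869348 (CXCL1), chr4:74099239-74099297 (CXCL2), chr4:74038734-74038792 (CXCL3), chr4:73998734-73998792 (CXCL5), chr4:73836564-73836622 (CXCL6), chr4:73740453-73740511 (CXCL8), chr4:76023640-76023698 (CXCL10) and chr2:227813738-227813797 (CCL20). CXCL1, CXCL6, CXCL8 and CCL20 lie on the plus strand and the other 4 on the minus strand. Without gaps, the windows of CXCL5 and CXCL6 are identical at 58 of 59 bases, those of CXCL1 and CXCL3 at 55 and those of CXCL1 and CXCL2 at 48. The windows of CXCL8 and CXCL1 share 24 of 59 bases, of which the match itself makes up 9.

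The match starts 78 bases before the start of transcription in CXCL1 and CXCL3, 77 in CXCL2, 90 in CXCL5, 89 in CXCL6, 91 in CXCL8 and 176 in CXCL10. The NF-kB consensus, read on both strands, was found in 7 of the 8 promoters and in 11.3% of all promoters. In CXCL1, CXCL2, CXCL3, CXCL5, CXCL6 and CXCL10 it overlaps the 9 letters, and CXCL8 has none. The AP-1 motif TGANTCA was found in CXCL8 alone among the 8 (7.71% of all promoters), 137 bases before the start. Of the core letters of the hypoxia response element, ACGTG was found in CXCL10 (21.4% of all promoters) and GCGTG in CXCL5 and CCL20 (36.5%). These are matches of letters in a short window, not measured binding sites.

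Several of the mRNAs are dense in AU-rich pentamers, and CXCL10 and CXCL16 are not. The pentamer ATTTA, the core of the AU-rich element, occurs at a median of 1.84 per 1000 bases in the 3′ UTRs of the 11427 tested protein-coding genes with a 3′ UTR of at least 100 bases (canonical GENCODE 44 transcripts). CXCL2 has 10 copies in 716 bases (14.0 per 1000 bases), CXCL3 has 7 in 673 (10.4) and CXCL1 has 6 in 772 (7.77). CXCL8 has 9 in 1252 (7.19) and CCL20 3 in 473 (6.34), and 2.88% and 4.49% of tested genes are at least as dense. CXCL5 and CXCL6 carry 5.51 and 5.36 per 1000 bases, CCL2 2.66, and CXCL10 and CXCL16, with 1 copy each, are below the median at 1.23 and 1.03. The longer form ATTTATTTA occurs in CXCL1, CXCL2 and CXCL8, 3 of the 10 genes, against 8.04% of the tested genes.

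CXCL8, CXCL6, CXCL1, CXCL5, CXCL3 and CXCL2 lie in that order within 358678 bases of chromosome 4 (GRCh38, 73740519 to 74099196). That span holds 20 annotated genes, of which 18 had a row in the files, 9 had any count and 7 could be tested, namely the 6 chemokines and a processed pseudogene (ENSG00000251017) at means of 1.93 to 2.57 CPM in the 4 groups. PF4V1 and PPBP, the other CXC genes of the cluster with rows, were at 0 counts in all 12 libraries and PF4 had 1 count in all, so the platelet chemokines of the locus were not detected beside the neutrophil-attracting ones. The nearest protein-coding neighbors are RASSF6 on one side, at means of 0.361 to 2.04 CPM, and MTHFD2L on the other, at 14.9 to 25.9 CPM. CXCL10 lies apart on the same chromosome (76021118 to 76023497), CXCL16 on chromosome 17 (4733533 to 4739928), CCL2 on chromosome 17 (34255274 to 34257208) and CCL20 on chromosome 2 (227805739 to 227817564). CXCL6 overlaps the pseudogene PPBPP1, which had 0 counts, on the same strand. CXCL10 overlaps ART3, CXCL16 overlaps MED11 and ZMYND15, and CXCL5 overlaps a lncRNA, all on the opposite strand. Whether the counting used strand is not given in the sources used here, so reads of such partners cannot be told apart, and reads of the close paralogs CXCL1, CXCL2 and CXCL3 or CXCL5 and CXCL6 could be shared.

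Transcripts were read at their 3′ end and counted per gene. Levels are given as CPM, the count scaled to the TMM-adjusted library total, are not divided by gene length and are not ranked between genes. Total gene counts ran from 2462623 to 4744982 in DMSO 24 h, 2703897 to 8202125 in Molidustat 24 h, 1499273 to 9179389 in DMSO 48 h and 2312396 to 5122636 in Molidustat 48 h. The shallowest library, DMSO 48 h replicate 2, stood apart. Reads outside annotated features were 50.4% of its total and 17.1 to 25.6% of that of the remaining 11 libraries, and 1 count there equals 1.06 CPM. It held no count of CXCL2, CXCL3, CXCL5, CXCL6 or CXCL10, so the chemokine fold changes that use DMSO 48 h are given with and without it.

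The cells carried the labelled hepatic identity, with all 8 hepatocyte or hepatoma markers tested and AFP at 3908 to 10323 CPM. Summed, the 8 were at 10600 to 13269 CPM in DMSO 24 h and 14713 to 18356 CPM in Molidustat 24 h. At 48 h the sum was 8123 to 14136 CPM with DMSO and 19029 to 22583 CPM with Molidustat. APOB and HNF4A instead had their lowest means in Molidustat 48 h. The summed level of the 8 leukocyte markers ran from 53.2 to 234 CPM and was mostly LYZ, lysozyme (42.9 to 232 CPM). CD3E, MS4A1 and CSF1R were at 0 counts in every library, ITGAM had 1 count in all and PTPRC, the common leukocyte antigen, 7. LYZ was lowest in Molidustat 48 h, at 54.3 ± 15.7 CPM, and highest in DMSO 24 h, at 191 ± 37.8 CPM (SD, n = 3). Of the other detected leukocyte markers, CD14 was lowest in DMSO 24 h and highest in Molidustat 48 h (means 1.22 and 8.92 CPM), and CD68 was lowest in DMSO 48 h and highest in Molidustat 24 h (2.22 and 3.83 CPM), as CXCL8 was. The 5 endothelial markers summed to 0 to 6.45 CPM and the 6 fibroblast markers to 1.86 to 22.2 CPM, the latter highest in the 3 Molidustat 48 h libraries, and the part of these markers in the results was not tested. As RNA was taken from whole cultures, fewer expressing cells and less RNA per cell cannot be told apart.

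Of the 10 chemokines, 9 were detected and passed the filter on low counts. CCL2 had 0 counts in all 12 libraries, which allows at most 3 counts of 56468708 (0.0531 CPM over all libraries, counting error only).

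With all 12 libraries CXCL8, or interleukin 8, was the chemokine that changed most by fold in 3 of the 4 comparisons between groups. With Molidustat at 24 h CXCL10 had the larger log2 fold change. Leaving out 1 library could turn this order. CXCL6 then reached 7.56 at 48 h and CXCL3 -3.16 over time in Molidustat, beyond the furthest such values of CXCL8 (5.86 and -3.08). The level of CXCL8 in the 3 DMSO libraries was 19.3, 32.0 and 22.5 CPM at 24 h and 0.271, 1.06 and 0.723 CPM at 48 h, on 84, 83 and 109 counts against 2, 1 and 7. With Molidustat it was 184, 141 and 134 CPM at 24 h and 8.54, 28.7 and 35.7 CPM at 48 h. The 3 Molidustat 24 h libraries lay above all others, the 3 DMSO 48 h libraries below all others, and Molidustat 48 h overlapped DMSO 24 h, with means of 24.3 ± 14.1 and 24.6 ± 6.59 CPM (SD, n = 3).

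At 24 h CXCL8 rose with Molidustat by a log2 fold change of 2.64 (standard error 0.46), which passed the quasi-likelihood test of edgeR (adjusted p = 0.0173, Benjamini-Hochberg over all genes). At 48 h the log2 fold change was 5.38 (standard error 0.63, edgeR adjusted p = 0.000941). Summed over the 3 libraries, DMSO 48 h held 10 counts, and the pooled ratio of Molidustat to DMSO at 48 h was 43.9 with a 95% counting interval of 23.5 to 92.4, which covers counting error only. The 24 h call was lost when any of the 3 DMSO 24 h libraries, or Molidustat 24 h replicate 1 or 2, was left out (adjusted p up to 0.166 by edgeR), whereas the 48 h call was kept in all 12 such fits. When only the 6 libraries of 48 h were fitted, the 48 h value was as large (5.35) but was not called (edgeR adjusted p = 0.108).

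CXCL1, a neutrophil attractant first known as a melanoma growth factor, was likewise highest in Molidustat 24 h and lowest in DMSO 48 h. DMSO libraries held 42.0, 49.7 and 37.4 CPM at 24 h and 4.07, 1.06 and 8.37 CPM at 48 h. Molidustat libraries held 192, 149.7 and 88.3 CPM at 24 h and 48.5, 36.9 and 56.0 CPM at 48 h. All 3 Molidustat libraries exceeded all 3 DMSO libraries at each time, and Molidustat 48 h again overlapped DMSO 24 h. CXCL1 rose with Molidustat at 48 h (log2 fold change 3.15, standard error 0.47, edgeR adjusted p = 0.00616) and had 1.74 at 24 h (standard error 0.42, edgeR adjusted p = 0.16), which did not pass. Without DMSO 48 h replicate 2, the 24 h value was 1.75 and passed (edgeR adjusted p = 0.0103) along with 0.728% of all genes, and the 48 h value was 2.89 (edgeR adjusted p = 0.00143). The fit that moved the 48 h value most, without DMSO 48 h replicate 3, gave 3.83. With only the 6 libraries of 48 h it was 3.17 and was not called (edgeR adjusted p = 0.17).

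**Figure D1:**
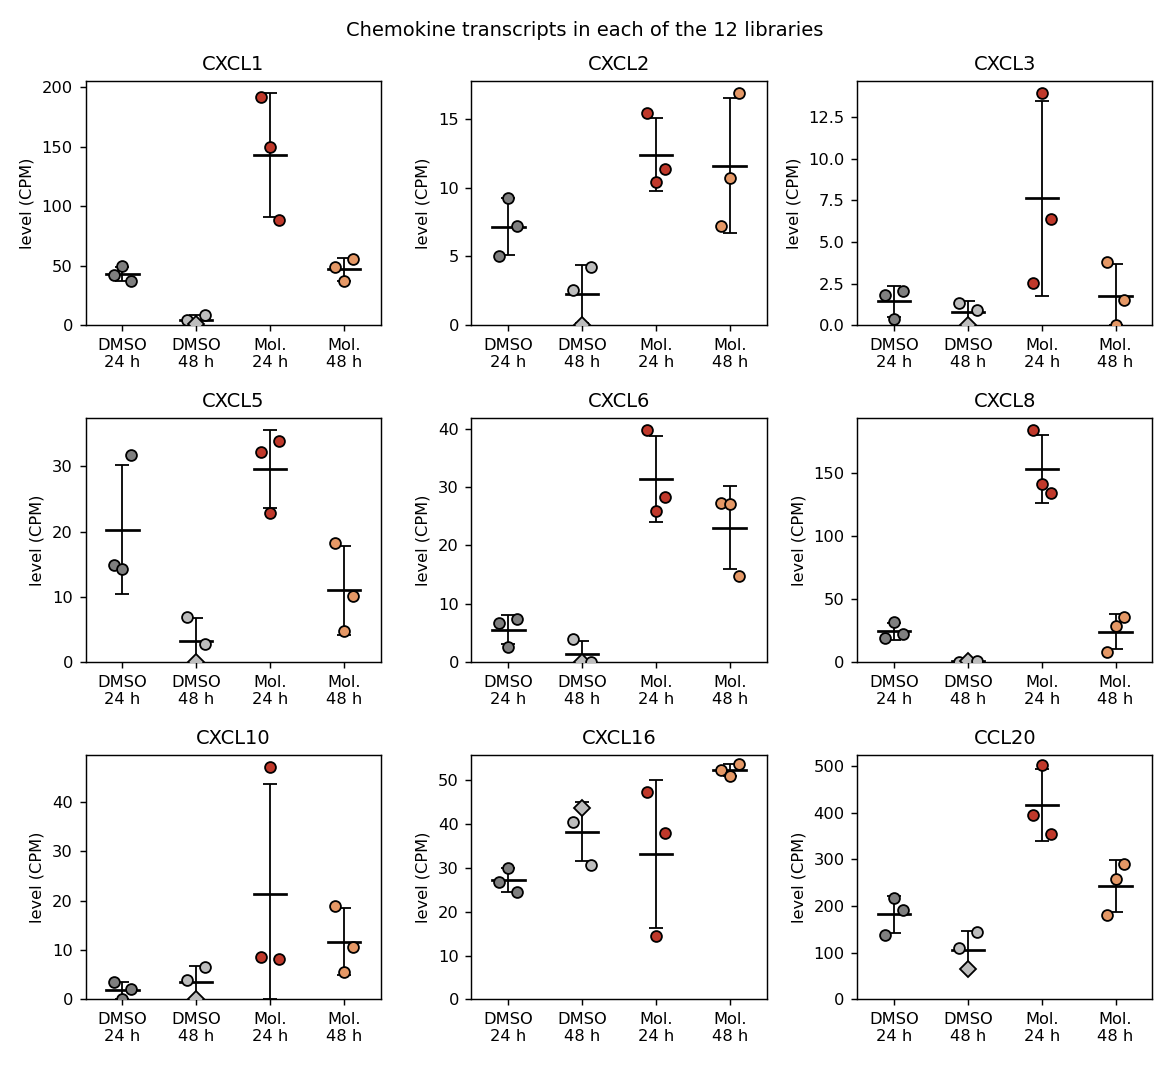
Level in CPM (linear axes from 0, scaled for each gene) of 9 chemokines in each library, with group mean and SD (n = 3, lower bars stopped at 0) and DMSO 48 h replicate 2 as a diamond. CXCL8 and CXCL1 are highest in Molidustat 24 h and lowest in DMSO 48 h, and their Molidustat 48 h points overlap DMSO 24 h.

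In the 9 tested members the response to Molidustat pointed upward, and edgeR called CXCL8 and CXCL1. At 24 h all 9 tested chemokines had a positive log2 fold change, with a median of 1.74, while 51.5% of the 14274 genes tested were positive and their median was 0.02. The members were chosen with earlier results of these data known, so the counts of signs and the medians here are descriptions, not tests. CXCL3, with at most 10 counts in any DMSO library, passed the filter on low counts through its Molidustat libraries. Its sign at 24 h and at 48 h and its lack of overlap at 24 h are therefore no separate support. CXCL8 was the 1 member called, against a background of 0.231% of all genes called higher (33 genes). In 7 of the 9 (CXCL1, CXCL2, CXCL3, CXCL6, CXCL8, CXCL10 and CCL20) the Molidustat and DMSO libraries did not overlap, as in 7.26% of all genes. At 48 h all 9 were again positive, with a median of 1.53 against 0.01 for all genes. CXCL3 at 48 h was -0.14 without Molidustat 48 h replicate 1, and CXCL16 at 24 h was -0.052 without Molidustat 24 h replicate 1. CXCL1 and CXCL8 were called, against 0.21% of all genes called higher. In 6 of the 9 (CXCL1, CXCL2, CXCL6, CXCL8, CXCL16 and CCL20) the libraries did not overlap, as in 9.96% of all genes. DESeq2, the tool of the study, was rerun here in version 1.42.0 after the same filter on low counts. Its calls need not match the study's own. It called CXCL1, CXCL8, CXCL10 and CCL20 at 24 h and CXCL1, CXCL2, CXCL6, CXCL8 and CCL20 at 48 h. Its calls were more numerous among all genes too, at 0.932% called higher at 24 h and 1.22% at 48 h. Limma-voom with sample quality weights called CXCL1 and CXCL8 at 24 h (adjusted p = 0.0134 for CXCL1), among 0.448% of all genes called higher, and CXCL1, CXCL6 and CXCL8 at 48 h, among 1.71%.

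The other neutrophil-attracting members had log2 fold changes of 0.53 to 3.71, none past edgeR's test with all 12 libraries. CXCL6, also called granulocyte chemotactic protein, was at 6.66, 2.696 and 7.44 CPM in DMSO 24 h and at 39.8, 26.0 and 28.3 CPM in Molidustat 24 h. At 48 h it was at 4.07, 0 and 0.103 CPM with DMSO and 27.2, 27.03 and 14.8 CPM with Molidustat. No library with DMSO came near the lowest with Molidustat at either time, and the log2 fold changes were 2.45 and 3.71 (standard errors 0.76 and 0.85, edgeR adjusted p = 0.427 and 0.107). The 48 h value rests on DMSO 48 h replicate 1, which held nearly all DMSO counts of CXCL6 at that time. Without it the value was 7.56 and was called (edgeR adjusted p = 0.00309, with 0.368% of all genes called higher), a size that depends on the prior count because 1 count remained in the DMSO 48 h group. Unlike CXCL8 and CXCL1, its Molidustat 48 h libraries also lay above all DMSO 24 h libraries.

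CXCL2, the close relative of CXCL1, was at 7.18 ± 2.10 CPM in DMSO 24 h and 12.4 ± 2.65 in Molidustat 24 h, and at 2.27 ± 2.13 (3.41 without replicate 2) and 11.6 ± 4.92 CPM at 48 h (SD, n = 3). The log2 fold changes were 0.79 and 2.09 (standard errors 0.64 and 0.68). CXCL5, which attracts neutrophils from epithelial cells, was at 20.3 ± 9.95 and 29.6 ± 5.96 CPM at 24 h and at 3.23 ± 3.48 (4.85 without replicate 2) and 11.02 ± 6.78 CPM at 48 h (SD, n = 3), with overlapping libraries at each time. CXCL3 had at most 14.0 CPM in any library, and its 24 h log2 fold change was 2.36 (standard error 1.15). Its Molidustat 24 h libraries were at 2.51, 14.0 and 6.35 CPM, all above the highest DMSO 24 h library at 2.07 CPM, and the value was 1.59 without replicate 2.

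CCL20, which recruits CCR6-carrying lymphocytes and dendritic cells, showed nearly the same response at both times. It was at 138, 217 and 191 CPM in DMSO 24 h and 394, 501 and 354 CPM in Molidustat 24 h. At 48 h it was at 109.8, 66.0 and 145 CPM with DMSO and 182, 258 and 289.9 CPM with Molidustat. The groups did not overlap at either time, and the log2 fold changes were 1.19 and 1.18 (standard errors 0.35 and 0.35, edgeR adjusted p = 0.348 and 0.203). Without DMSO 48 h replicate 2 they were 1.21 and 0.92, of which the first passed (edgeR adjusted p = 0.0304).

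CXCL10 and CXCL16 are the CXC members outside the neutrophil attractants. CXCL10 was at 3.44, 0 and 2.07 CPM in DMSO 24 h and at 8.60, 47.1 and 8.27 CPM in Molidustat 24 h, a log2 fold change of 3.45 (standard error 1.007, edgeR adjusted p = 0.353) in which replicate 2 alone held 388 of the 455 Molidustat counts. The value was 2.11 when that library was left out. At 48 h its libraries overlapped, at 3.93, 0 and 6.51 CPM against 18.9, 5.58 and 10.7 CPM. CXCL16 was at 26.9, 30.0 and 24.6 CPM in DMSO 24 h and 47.3, 14.6 and 37.9 CPM in Molidustat 24 h. At 48 h it was at 40.4, 43.6 and 30.7 CPM with DMSO and 52.4, 51.0 and 53.7 CPM with Molidustat, without overlap but with a log2 fold change of only 0.46 (standard error 0.38).

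With all 12 libraries the 48 h log2 fold changes of CXCL5 and CXCL10 were 1.53 each and that of CXCL3 was 0.97. Leaving out DMSO 48 h replicate 2 gave 48 h values of 5.47 for CXCL8, 3.48 for CXCL6, 1.75 for CXCL2, 1.202 for CXCL5, 1.16 for CXCL10, 0.67 for CXCL3 and 0.55 for CXCL16, all still positive. Over the 12 fits with 1 library left out, CXCL5 ranged from 0.34 to 1.002 at 24 h and from 0.96 to 2.40 at 48 h.

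**Figure D2:**
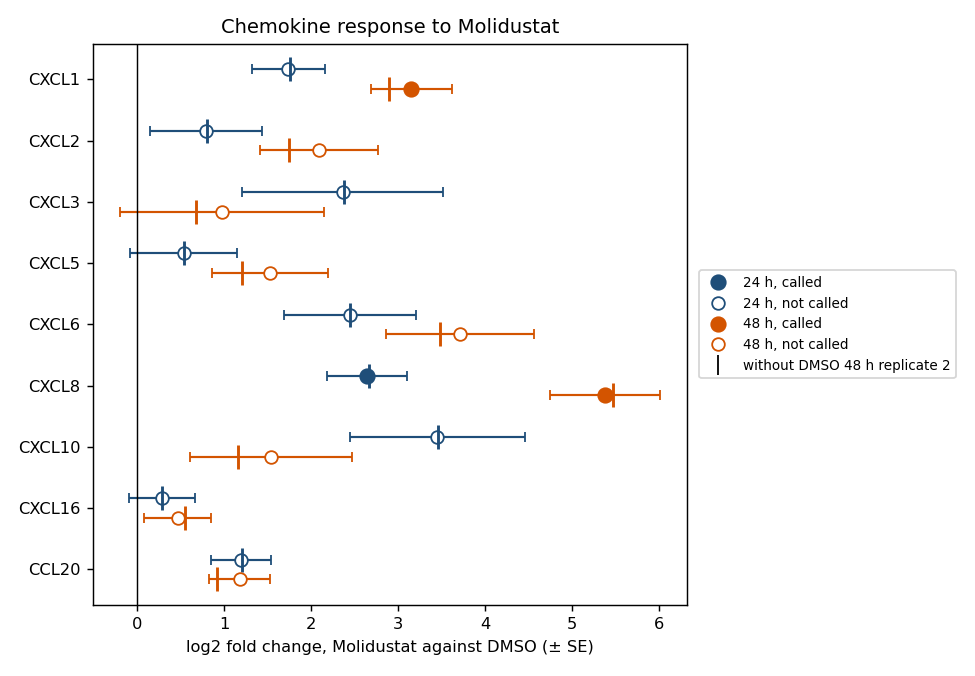
Log2 fold change of Molidustat against DMSO at 24 h (blue) and 48 h (orange) for 9 chemokines, with the standard error as bars, filled where called by edgeR, and a vertical tick for the value without DMSO 48 h replicate 2. All 18 points lie above 0, and CXCL8 at 48 h (5.38) is the largest.

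The DMSO level was lower at 48 h than at 24 h for 7 of the 9 chemokines and higher for CXCL10 and CXCL16, and the 48 h responses share these DMSO 48 h libraries. CXCL8 fell in DMSO by 5.39 on the log2 scale between 24 h and 48 h (standard error 0.63, edgeR adjusted p = 0.00409), the only 1 of 14274 genes called lower in that comparison (0.00701%). The pooled ratio of 24 h to 48 h was 42.1, with a 95% counting interval of 22.6 to 88.8. The call was kept whichever library was left out, and without DMSO 48 h replicate 2 the log2 fold change was -5.46. It was not made by limma-voom with sample quality weights (-5.32, adjusted p = 0.118) or when only the 6 DMSO libraries were fitted (-5.39, edgeR adjusted p = 0.322).

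CXCL1 was lower in DMSO at 48 h by a log2 fold change of -3.01 (standard error 0.46, edgeR adjusted p = 0.06), CXCL5 by -2.39 (0.67), CXCL6 by -1.71 (0.83) and CXCL2 by -1.38 (0.67), none of them called by edgeR. DESeq2 and limma-voom with sample quality weights called CXCL1 lower (-3.02 and -2.76, adjusted p = 9.16e-07 and 0.014), and they called 0.056% and 0.014% of all genes lower. Leaving out DMSO 48 h replicate 1 gave -5.59 for CXCL6 and -3.30 for CXCL5, and leaving out replicate 3 gave -3.72 for CXCL1 and -1.99 for CXCL2. CCL20 had -0.76 (0.35) and CXCL3 -0.65 (1.18) with all 12 libraries. With replicate 2 left out, the values were -2.06 for CXCL5, -0.35 for CXCL3, -1.48 for CXCL6, -1.03 for CXCL2 and -0.49 for CCL20, and 1.43 for CXCL10 and 0.42 for CXCL16. Without DMSO 48 h replicate 2, CXCL1 was at -2.74 and was called (edgeR adjusted p = 0.0208), as were 0.0131% of all genes. In all, 7 of the 9 had a negative value, with a median of -1.38 against 0.02 for all genes, and in CXCL1, CXCL2, CXCL5 and CXCL8 the 3 libraries at 48 h lay below the 3 at 24 h, as in 6.19% of all genes. CXCL10 (1.05, standard error 0.98) and CXCL16 (0.48, standard error 0.39) were the 2 with positive values, and CXCL16 alone was higher at 48 h without overlap (5.75% of all genes).

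With Molidustat 8 of the 9 also had a negative log2 fold change from 24 h to 48 h, but edgeR called none of them, as 0 of 14274 genes were called lower (0%). CXCL3, counted among the 8, passed the filter on low counts through its Molidustat libraries and was highest in those of 24 h. Its sign here is therefore no separate support. The unadjusted p was under 0.05 for 4 members, and among all 14274 genes for 341 with a positive and 313 with a negative value. DESeq2 and limma-voom with sample quality weights each called CXCL8, among 0.035% and 0.00701% of all genes called lower. For CXCL8 the log2 fold change was -2.65 (standard error 0.46, edgeR adjusted p = 0.446) and passed without DMSO 48 h replicate 2 (-2.65, edgeR adjusted p = 0.0427). CXCL3 had -2.04 (1.13), CXCL1 -1.60 (0.42), CXCL5 -1.40 (0.63), CXCL10 -0.86 (0.89) and CCL20 -0.77 (0.34). With 1 library left out, CXCL3 ranged from -3.16 to -1.30, and CXCL10 was 0.46 without Molidustat 24 h replicate 2. The libraries of CXCL1, CXCL5, CXCL8 and CCL20 at 48 h lay below those at 24 h, as in 6.79% of all genes. CXCL6 (-0.45, standard error 0.71) and CXCL2 (-0.09, standard error 0.63) differed between the times by less than their errors. CXCL16 was again the member with a positive value (0.67, standard error 0.38) and lay higher at 48 h without overlap, as did 7.15% of all genes.

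**Figure D3:**
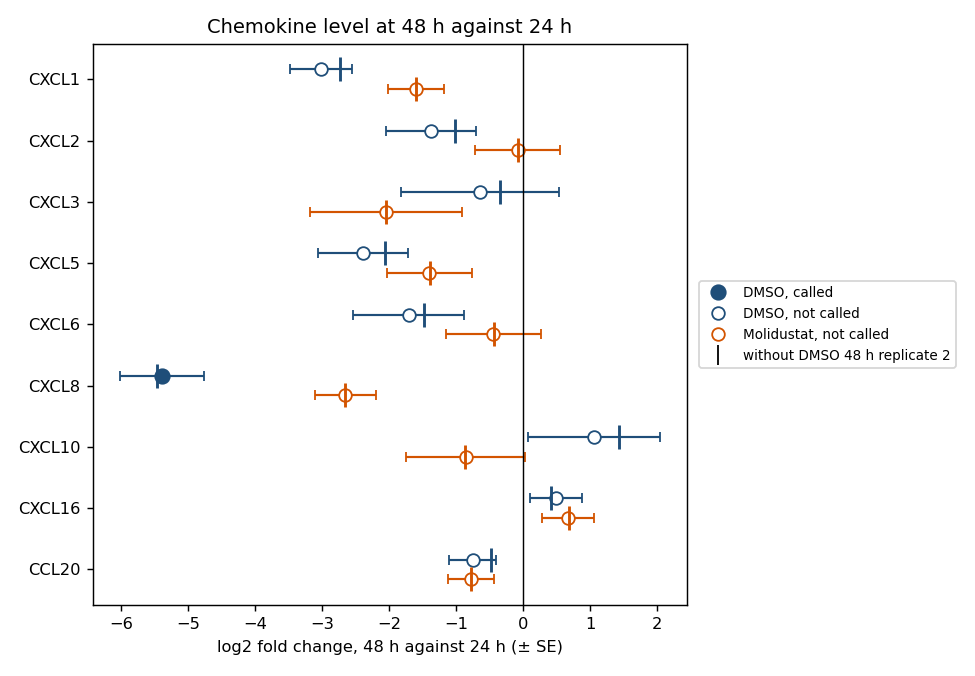
Log2 fold change of 48 h against 24 h in DMSO (blue) and in Molidustat (orange) for 9 chemokines, with the standard error as bars, filled where called by edgeR, and a vertical tick for the value without DMSO 48 h replicate 2. CXCL8 in DMSO (-5.39) is the only filled point, and only CXCL16 lies above 0 in both.

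Whether the response at 48 h was larger than at 24 h was tested as the interaction of treatment and time, which is also the difference between the changes over time with and without Molidustat. It is built from the same 12 libraries as the comparisons above. No chemokine passed (0 of 14274 genes by edgeR, 0%), and neither DESeq2 nor limma-voom with sample quality weights called a member. The unadjusted p was under 0.05 for 2 members, CXCL8 (log2 difference 2.74, standard error 0.75, edgeR adjusted p = 0.728) and CXCL1 (1.42, standard error 0.60). Among all 14274 genes it was under 0.05 for 168 with a positive and 800 with a negative value. CXCL2 and CXCL6 had 1.30 and 1.26 (0.92 and 1.08), CXCL5 0.99 (0.90), CXCL16 0.18 (0.54) and CCL20 -0.02 (0.49). CXCL3 and CXCL10 had -1.39 and -1.92 (1.63 and 1.32). The same fit on 11 libraries, omitting DMSO 48 h replicate 2, gave 2.81 for CXCL8, 1.14 for CXCL1, 1.04 for CXCL6, 0.94 for CXCL2, 0.66 for CXCL5, 0.26 for CXCL16, -0.29 for CCL20, -1.70 for CXCL3 and -2.30 for CXCL10. Single libraries moved several of them further. CXCL6 ranged from 0.55 to 5.12, the highest without DMSO 48 h replicate 1, which also gave the highest value of CXCL5 (0.42 to 1.87). CXCL10 ranged from -2.65 to -0.58, the last without Molidustat 24 h replicate 2, and CXCL3 from -2.50 to -0.63. CXCL1 and CXCL2 reached 2.10 and 1.88 without DMSO 48 h replicate 3.

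Of the receptors through which these proteins act, CCR6 was the one found at a sizeable level. CXCR1, CXCR2 and CXCR3 had 0 counts in every library, and of 23 chemokine receptors only CCR1 and CCR6 could be tested. CCR6, the receptor of CCL20, was at 81.5, 59.7 and 90.5 CPM in DMSO 24 h and at 15.1, 50.3 and 30.8 CPM in Molidustat 24 h. At 48 h it was at 113, 335 and 97.8 CPM with DMSO, the highest value being replicate 2, and at 41.6, 21.9 and 32.7 CPM with Molidustat. Each Molidustat library lay below each DMSO library of its time, which is the direction opposite to that of CCL20. The log2 fold changes were -1.26 and -2.48 (standard errors 0.49 and 0.51, edgeR adjusted p = 0.808 and 0.0705), and -1.72 at 48 h without DMSO 48 h replicate 2 (adjusted p = 0.0749). All libraries were lower without overlap in 5.02% of all genes at 24 h and 8.02% at 48 h. CCR6 was called lower at 48 h by DESeq2 (-2.57, adjusted p = 0.000507), by limma-voom with sample quality weights (-1.74, adjusted p = 0.00271) and by edgeR in 2 of the 12 fits with 1 library left out. DESeq2 called 1.23% and limma-voom 0.238% of all genes lower there. The fits with 1 library left out called 0 to 272 genes lower at 48 h, the most without DMSO 48 h replicate 1. CCR1 stayed between 0 and 8.15 CPM.

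Of 34 other chemokines, 24 had no count in any library and 4 could be tested, with none called by edgeR in any of the 5 comparisons. Of these 4, 3 were positive with Molidustat at 24 h and 2 at 48 h (median log2 fold changes 0.12 and 0.61). CXCL14, a chemokine of epithelia, was at group means of 5.54 to 8.34 CPM, and XCL1, which draws lymphocytes, had 3.69 to 8.34 CPM. CX3CL1, a membrane-bound chemokine, was at 2.34 to 8.43 CPM and CCL15, which draws monocytes, at 1.82 to 6.75 CPM.

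By edgeR no gene was called in any of the 5 comparisons in the lists of NF-kB, AP-1 and C/EBP, and inflammatory cytokine genes that follow. Of the genes of these lists named below, DESeq2 called JUN and IL32 higher at 48 h. Of 13 NF-kB subunits and kinases, 11 were tested, 5 of them positive at 24 h and 4 at 48 h (medians -0.27 and -0.32). The 3 with the highest mean CPM over the 12 libraries were NFKB1, the p50 precursor (group means 21.5 to 34.3 CPM), REL, a transactivating subunit (13.9 to 35.2 CPM), and MAP3K7, the kinase TAK1 (27.5 to 45.7 CPM). The highest group mean of REL, in DMSO 48 h, rests on 61.7 CPM in replicate 2 and was 21.9 CPM without it, so its place among the 3 may rest on that library. Of 14 feedback and target genes of NF-kB, 13 were tested, with medians of 0.03 and 0.23. NFKBIA, the inhibitor IκBα, was at 107, 158 and 145 CPM in DMSO 24 h and 167, 215 and 165 CPM in Molidustat 24 h, and at 96.0, 26.6 and 106 against 133, 107 and 118 CPM at 48 h, with no overlap at either time. NFKBIZ and TNFAIP2 had group means of 30.1 to 86.1 and 31.0 to 102 CPM, the highest in DMSO 48 h, where replicate 2 alone held 185 and 231 CPM.

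Among 12 AP-1, C/EBP and early response factors, 9 were tested, with medians of 0.61 at 24 h and 0.41 at 48 h. JUN, a subunit of AP-1, was at 72.8, 71.6 and 63.4 CPM in DMSO 24 h and 103, 91.8 and 123 CPM in Molidustat 24 h. At 48 h it was at 47.0, 18.1 and 33.3 CPM with DMSO and 94.8, 92.7 and 76.5 CPM with Molidustat, without passing the test by edgeR. KLF6, a zinc finger factor, had group means of 64.6 to 114 CPM and CEBPB, the C/EBPβ factor, 86.1 to 118 CPM. Of 23 inflammatory cytokines and their receptors, 12 were tested, of which 10 were positive at 24 h and 11 at 48 h (medians 0.59 and 0.46). The 3 with the highest mean CPM over the 12 libraries were IL6ST, the gp130 subunit (36.6 to 60.5 CPM), TNFRSF1A, the TNF receptor (26.2 to 52.3 CPM), and IL32, a cytokine made by epithelial and lymphoid cells (7.38 to 51.0 CPM).

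The HIF target genes gave a reference for the treatment. Of 10 listed, 9 were tested, and those called higher at 24 h included BNIP3, LDHA, DDIT4, PGK1, SLC2A1 and PFKFB4. At 48 h they included BNIP3, DDIT4, PGK1 and PFKFB4, and LDHA was also called when DMSO 48 h replicate 2 was left out. BNIP3, a mitophagy receptor, had log2 fold changes of 2.81 and 2.68 at 24 h and 48 h. PFKFB4, a regulator of glycolysis, had 4.16 and 3.24, DDIT4, an inhibitor of mTORC1 signalling, 3.10 and 3.24, and PGK1, a glycolytic enzyme, 2.80 and 1.99. LDHA, which makes lactate, had 2.48 and 1.86, and SLC2A1, the glucose transporter GLUT1, 1.98 and 1.65. Over time in DMSO, where CXCL8 fell, all 9 tested HIF targets had positive values (median log2 fold change 0.68), none of them called by edgeR. Mean levels at 24 h and 48 h were 158 and 178 CPM for BNIP3, 244 and 398 CPM for LDHA, 15.9 and 28.4 CPM for DDIT4 and 73.7 and 119 CPM for PGK1. The 48 h means without replicate 2 were 191, 489.6, 40.5 and 96.0 CPM in that order.

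The genes whose log2 CPM ran most like that of CXCL1 over the 12 libraries, outside the 10 chemokines, were TGFBI, a matrix protein (Pearson r = 0.96), DUSP1, a phosphatase of MAP kinases (0.96), ZFAND2A, a stress-inducible zinc finger protein (0.95), CLDN1, a tight junction protein (0.93), and TNFAIP8, a TNF-inducible protein (0.93). For CXCL8 they were IL32 (0.91), VIM, or vimentin (0.91), SAP30, a subunit of a histone deacetylase complex (0.88), MT2A, a metallothionein (0.87), and TGFBI (0.87). These values describe 12 libraries that share 4 groups and differ in depth. All 9 of these genes, chosen for that likeness, had lower mean levels in DMSO at 48 h than in the other 3 groups. EdgeR called none of them in any comparison, while DESeq2 called TGFBI, DUSP1, CLDN1, TNFAIP8 and IL32 higher with Molidustat at 48 h and CLDN1 lower over time in DMSO. TGFBI, for example, was at 73.3, 68.9 and 65.5 CPM in DMSO 24 h, 143, 129 and 87.9 in Molidustat 24 h, 35.9, 24.5 and 44.6 in DMSO 48 h and 97.3, 106 and 80.2 CPM in Molidustat 48 h. Among the chemokines themselves, CXCL1 ran with CXCL8 (0.92), CCL20 (0.92), CXCL2 (0.90), CXCL5 (0.87) and CXCL6 (0.84), less with CXCL3 (0.62) and CXCL10 (0.56), and not with CXCL16 (-0.20). Without DMSO 48 h replicate 2, the value for CXCL8 was 0.97 and that for CXCL16 -0.13. The others were then lower, at 0.87 for CCL20, 0.85 for CXCL2, 0.73 for CXCL5, 0.73 for CXCL6, 0.47 for CXCL3 and 0.30 for CXCL10.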

How the data were processed

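The authors prepared 3′ libraries of polyadenylated RNA with the QIAseq UPX kit, sequenced them on a NextSeq, used STAR (2.7.9a) for alignment to GRCh38 and HTSeq (0.11.2) for counting per gene. The deposited values are whole-number counts without normalization. Annotation release, strand setting and use of molecular identifiers are not given in the sources used here. Counts were fitted in edgeR 4.0.16 (filterByExpr, minimum count 10, TMM, quasi-likelihood test on all 12 libraries, 14274 genes tested of 28430 with a count), with Benjamini-Hochberg adjustment over all genes. Calls required a log2 fold change past 1 in size together with an adjusted p below 0.05 (the interaction at adjusted p alone). Standard errors came from the F statistic. The 5 summary lines of each file were left out, of which reads on no feature made up 17.1 to 50.4% of all listed reads. DESeq2 1.42.0 and limma 3.58.1 were alternatives. The methods were tested on simulated data. Of 189 listed symbols, 188 matched a gene of GENCODE 44. Genes named are all members and, of each list, those called and the 3 most abundant, the neighbors of the cluster and the 5 genes most like CXCL1 and CXCL8. Some genes that this rule selects are not reported here. Members and lists were chosen with earlier results of these data known. No 2 libraries of a group agreed within sampling noise.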

Additional observations from a re-analysis of the deposited data

How the results depend on the processing

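Over the alternatives, 876 of 939 values for the chemokines kept their direction and side of the threshold. Most of these were not called in the main fit and stayed so. Of the others, 38 gained a call, 9 lost a call (5 of them for Molidustat at 24 h) and 16 changed sign. The number of chemokines called (1 at 24 h, 2 at 48 h, 1 over time in DMSO, 0 over time in Molidustat and 0 for the interaction) was 4, 5, 2, 1 and 0 by DESeq2, and 5, 3, 2, 2 and 0 by DESeq2 without DMSO 48 h replicate 2, an alternative chosen after seeing the data. It was 2, 3, 1, 1 and 0 by limma-voom with sample quality weights, 4, 3, 3, 1 and 1 (CXCL8) without a filter on low counts, and 3, 0, 0, 0 when only the 2 groups compared were fitted. With at least 10 counts in every library it was 0 throughout, as only CCL20 and CXCL16 were then tested. Scaling by total counts gave 2 over time in DMSO, and moved the median of all genes to -0.13 there, 0.13 for Molidustat at 48 h and 0.16 for the interaction. Among all genes, the share called higher at 24 h and 48 h was 0.231% and 0.21% by edgeR, 0.932% and 1.22% by DESeq2, 1.33% and 0.97% by DESeq2 without DMSO 48 h replicate 2, 0.448% and 1.71% by limma-voom, 0.366% and 0.542% without a filter and 0.441% and 0.0535% with only the 2 groups. The share called lower over time in DMSO was 0.00701% by edgeR and at most 0.0656% in these settings. Over time in Molidustat it was 0.035% by DESeq2, 0.321% by DESeq2 without DMSO 48 h replicate 2, 0.00701% by limma-voom and 0.0106% without a filter, where the interaction had 0.0211% of genes higher and 1.11% lower. Leaving out 1 library gave 0 to 3 at 24 h, 2 to 3 at 48 h, 1 to 2 over time in DMSO, 0 to 1 in Molidustat and 0 for the interaction, while 0.131 to 0.728% of all genes were called higher at 24 h, 0.0874 to 0.368% higher and 0 to 1.82% lower at 48 h, 0.00654 to 0.0134% lower over time in DMSO and 0 to 0.0131% lower over time in Molidustat.

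Of the 939 values, 16 changed sign, and the cause was not tested. After thinning to the smallest library, CXCL10 over time in DMSO was -0.58, CXCL2 over time in Molidustat 0.43, and the interaction -0.30 for CXCL16 and 0.048 for CCL20. The interaction of CCL20 was 0.11 with total counts and 0.00209 with at least 10 counts in every library.
Leaving out 1 library gave log2 values of -0.052 to 0.65 for CXCL16 (Molidustat at 24 h), -0.14 to 1.46 for CXCL3 (Molidustat at 48 h), 0.42 to 1.77 for CXCL10 (time in DMSO), -0.49 to 0.15 for CXCL2 (time in Molidustat), -1.40 to 0.46 for CXCL10 (time in Molidustat), -0.20 to 0.52 for CXCL16 (the interaction) and -0.29 to 0.27 for CCL20 (the interaction).

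Replicate numbers did not pair the libraries. Deviations from the group means correlated at -0.0902 to 0.139 for the same number (18 pairs) and -0.158 to 0.144 for different numbers (36 pairs), and with the replicate block 1, 0, 1, 2 and 0 chemokines were called over time in DMSO, over time in Molidustat, at 24 h, at 48 h and for the interaction, among 0.00701% (lower), 0%, 0.21% (higher), 0.154% (higher) and 0% of all genes. Depth limits the low members, since 3 counts equal 3.19 CPM in DMSO 48 h replicate 2 and 0.31 to 1.29 CPM in the other libraries.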

Other observations

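Lists that bear on other steps of chemokine biology held no called gene in any of the 5 comparisons by edgeR. Of 12 interferon response genes, 9 were tested (6 positive at 24 h, 7 at 48 h, medians 0.13 and 0.49). IRF3 had group means of 42.1 to 52.3 CPM, and STAT2 had 46.2 to 166 CPM, the highest mean resting on 415 CPM in DMSO 48 h replicate 2. Of the 7 factors that bind AU-rich elements, all 7 were tested (3 positive at 24 h, 1 at 48 h, medians -0.02 and -0.38). HNRNPD, or AUF1, had group means of 319 to 448 CPM, ZFP36L2 199 to 462 CPM and KHSRP 96.3 to 278 CPM, and the last pair had 863 and 591 CPM in DMSO 48 h replicate 2 alone.

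ADAM10 and ADAM17, proteases known to release CXCL16 from the membrane, had group means of 182 to 352 and 54.2 to 289 CPM, with 687 and 729 CPM in DMSO 48 h replicate 2, and DPP4, which trims CXCL10, had 13.4 to 20.8 CPM. EdgeR called none of these 3 with all 12 libraries, and called ADAM17 lower at 48 h in 2 of the 12 fits with 1 library left out. Those 12 fits called 0 to 272 genes lower at 48 h. Of the hepatocyte markers, ALB had group means of 1861 to 3919 CPM and APOA1 1060.4 to 3582 CPM. Of the other markers, CD14 had 1.22 to 8.92 CPM, CD68 2.22 to 3.83, PECAM1 0.961 to 2.27, COL1A2 0.427 to 5.06, LUM 0.85 to 7.01 and PDGFRB 0.411 to 1.91 CPM, and none was called by edgeR.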
